A study of Mus musculus with 12 samples.

Results

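The genes described here are the 10 best known survival and death genes of the BCL2 family, taken from the count table by symbol: Bcl2, Bcl2l1 and Mcl1 for survival, Bcl2l11, Bad, Bid, Bbc3 and Pmaip1 for the BH3-only activators of death, and Bax and Bak1 for the effectors. All 10 were among the 14323 genes of the table, and all 10 passed the filter on low counts in every comparison. They were taken by symbol alone, though earlier results of these data were known when the family was chosen. The RNA came from naïve CD8+ T cells of 3 wild type mice, sorted from spleen by surface markers that include TCRβ, CD8 and the absence of CD44, and kept in coated wells for 6 h at 100000 cells per well. In the unstimulated wells, cells met isotype control alone or with 2.5 µg/ml of the in-house anti-LAIR-1 antibody 2C7. In the stimulated wells, 2.5 µg/ml anti-CD3ε was coated with the isotype control or with 2.5 µg/ml anti-LAIR-1. LAIR-1 is an inhibitory receptor for collagen on immune cells, and an immobilised antibody is here a substitute for that ligand in culture. Each condition had 1 library per mouse, 12 libraries in all, and the study describes its mice as adult and of the C57BL/6N strain. The exact age and the sex of these 3 are not given in the sources used here.

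Proteins of the BCL2 family decide whether the outer mitochondrial membrane is opened, which releases cytochrome c and starts the caspases. Survival proteins hold the effectors BAX and BAK in check, and BH3-only proteins lift that check by binding the survival proteins or by acting on the effectors. Naïve T cells are known to depend on BCL2 and MCL1, with BIM, the product of Bcl2l11, as their main BH3-only counterpart, and BCL-XL, the main product of Bcl2l1, is known to be induced when T cells are activated.

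Libraries held 1781218 to 7725545 counts, with group medians of 2304214 for isotype and 3548881 for anti-LAIR-1 in unstimulated cells, and 4883760 for isotype and 6204054 for anti-LAIR-1 in stimulated cells. At these depths 3 counts were 0.388 to 1.68 CPM (counts scaled to library size alone). All other CPM values given here are normalised, that is scaled by TMM to the effective library size. Mitochondrial transcripts took 17.6% to 20.9% of the counts without and 11.5% to 13.2% with anti-CD3. The summed level of 7 CD8 T cell markers was 3688 to 4191 CPM in the unstimulated isotype libraries, 3802 to 4066 CPM in the unstimulated anti-LAIR-1 libraries, 2000 to 2181 CPM in stimulated isotype libraries and 2552 to 2915 CPM in stimulated anti-LAIR-1 libraries, and none of the 7 was at 0. A set of 4 naïve T cell markers (Ccr7, Lef1, Tcf7 and Il7r) summed to 1885 to 2134, 1947 to 2130, 272 to 355 and 354 to 410 CPM in the same groups, and 6 CD3 response genes to 224 to 275, 243 to 262, 2366 to 2625 and 2096 to 2421 CPM. Markers of B, myeloid, NK, CD4 T and erythroid cells summed to at most 9.68, 5.38, 1.06, 4.84 and 1.22 CPM in any library, and Cd4 was at 0 in all libraries with anti-CD3 and isotype. The part of depth and of the mitochondrial share in the results was not tested, apart from thinning all libraries to the smallest total. In these bulk libraries, fewer cells of a kind and less RNA per cell cannot be told apart.

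The first question was how the family's RNA differed between stimulated and unstimulated cells. With isotype control, anti-CD3 raised Bcl2l1, Bid and Bax and lowered Bad, Bbc3, Pmaip1 and Bcl2l11, so that 7 of the 10 genes passed an adjusted p of 0.05 in edgeR's quasi-likelihood test. Such calls were common here: 71.3% of the 8690 genes tested were called, 35.3% higher and 36.1% lower. Groups did not overlap for 8 of the 10 and for 73.5% of all genes. The median log2 fold change was -0.12 over the 10 genes and -0.03 over all genes tested. With anti-LAIR-1 in both groups, 9 of the 10 were called for anti-CD3, against 72.7% of 9000 genes. These were 4 higher and 5 lower (36.4% and 36.3% of all genes), and groups did not overlap for 8, against 74.9%. There the median was -0.02 over the 10 and -0.04 over all genes.

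**Figure D1:**
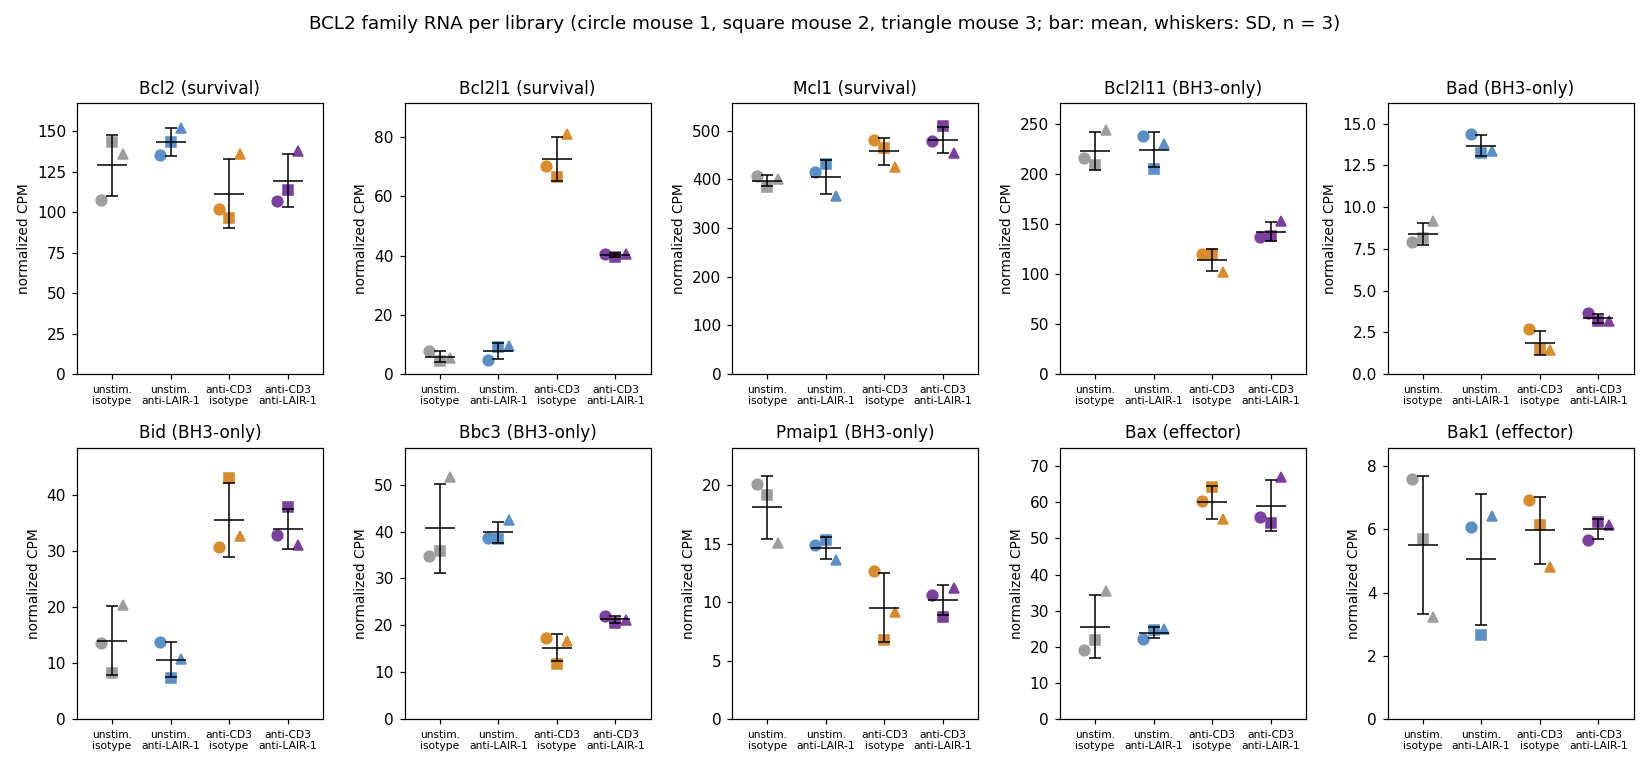
Normalised CPM (linear axes from 0) of the 10 genes in each of the 12 libraries, by condition, with circles, squares and triangles for mouse 1, 2 and 3, bars for the mean and whiskers for the SD (n = 3). Bcl2l1 lies at 66.7 to 81.0 CPM in stimulated isotype libraries and at 39.5 to 40.5 CPM in stimulated anti-LAIR-1 libraries, against 4.48 to 9.35 CPM without anti-CD3.

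Bcl2l1 (chr2:152780668-152831728, minus strand, GRCm38) encodes BCL-XL, which holds BAX and BAK inactive. The counts do not separate it from BCL-XS, the short death-promoting product of the same gene. In mice 1, 2 and 3, its normalised level was 7.93, 4.48 and 5.38 CPM in unstimulated isotype wells and 70.3, 66.7 and 81.0 CPM with anti-CD3 and isotype. All 3 stimulated libraries stood far above the unstimulated ones, and the log2 fold change was 3.53 ± 0.20 (SE), or 11.6-fold (adjusted p = 2.6e-13 in edgeR). With anti-LAIR-1 in both groups, the levels were 4.70, 9.27 and 9.35 CPM without and 40.5, 39.5 and 40.4 CPM with anti-CD3. The groups again did not overlap, and the log2 fold change was 2.35 ± 0.19 (SE), or 5.11-fold (adjusted p = 1.8e-09). Behind the unstimulated values were only 10 to 35 counts per library, against 191 or more with anti-CD3.

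The sequence before the first start site of Bcl2l1 is shown because this gene had the widest change of the 10. That before Bcl2l11, whose RNA moved the other way, was picked because it held a FOXO match. The window of a later start site of Bcl2l11 held no match to the motifs below. Both stretches are from RefSeq on GRCm38.p6. In 15 RefSeq windows of 300 bases, from 250 before to 50 after a start site, for 9 of the genes (none matched for Pmaip1), both strands were searched for TTCNNNGAA (STAT), TGANTCA (AP-1), GTAAACA (FOXO), CACGTG (E-box) and the NF-kB consensus. The stretch of Bcl2l1 at chr2:152831729-152831978 (minus strand, 47.6% GC) held none of them. The stretch of Bcl2l11 at chr2:128125788-128126037 (plus strand, 72.0% GC) held 1 FOXO match, in capitals.
Bcl2l1: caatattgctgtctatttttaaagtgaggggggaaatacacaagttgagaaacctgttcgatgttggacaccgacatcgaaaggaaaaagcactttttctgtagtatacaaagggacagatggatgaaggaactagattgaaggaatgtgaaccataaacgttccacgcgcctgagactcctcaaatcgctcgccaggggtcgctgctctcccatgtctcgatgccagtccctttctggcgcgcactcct
Bcl2l11: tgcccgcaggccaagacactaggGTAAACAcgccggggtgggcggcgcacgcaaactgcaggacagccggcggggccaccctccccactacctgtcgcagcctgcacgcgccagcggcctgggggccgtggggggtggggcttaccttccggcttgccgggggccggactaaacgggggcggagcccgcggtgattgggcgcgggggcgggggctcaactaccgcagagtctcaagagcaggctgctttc
A later start site of Bcl2l1 had an NF-kB consensus match (in capitals) at chr2:152830938-152830967 on the minus strand, and Bbc3, whose RNA fell, a FOXO match on the other strand (in capitals) at chr7:16310083-16310112. No match overlapped that of another motif, and some windows of 1 gene overlap.
Bcl2l1 NF-kB match: tgtttgtgGGGGGTCTCCagcatacgcctc
Bbc3 FOXO match: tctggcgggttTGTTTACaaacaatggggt
In all, 2 of the 15 windows held a FOXO match, 2 an NF-kB match (1 of Bcl2l1, which rose, and 1 of Bbc3, which fell), 2 an E-box (1 of Bbc3 and 1 of Bax) and 0 a STAT or AP-1 match. Of 32851 windows over all genes, 3.65%, 8.46%, 7.15%, 8.3% and 7.81% held them in that order. A match of letters is a description of the window and no evidence of binding.

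Bcl2 and Mcl1, the survival genes on which naïve T cells are known to depend, moved little. Bcl2 (chr1:106538178-106714274) was at 107, 143 and 136 CPM in unstimulated isotype wells and 102, 96.1 and 136 CPM with anti-CD3 and isotype. The groups overlapped, and the log2 difference was -0.23 ± 0.13 (SE, 95% interval -0.51 to 0.04, adjusted p = 0.123). With anti-LAIR-1 in both groups it was at 135, 143 and 152 CPM without and 107, 114 and 138 CPM with anti-CD3, and the log2 fold change was -0.28 ± 0.10 (SE, adjusted p = 0.0176) although the groups overlapped. Mcl1 (chr3:95658788-95663176), whose protein is short-lived, was at 407, 384 and 401 CPM without and 481, 465 and 425 CPM with anti-CD3 in the isotype libraries. All 3 stimulated libraries were higher, but the log2 difference of 0.16 ± 0.09 (SE, 95% interval -0.02 to 0.34) missed the threshold (adjusted p = 0.0948). With anti-LAIR-1 it was at 416, 431 and 365 CPM without and 480, 509 and 454 CPM with anti-CD3, a log2 fold change of 0.24 ± 0.08 (SE, adjusted p = 0.00973) between groups that did not overlap. Upper quartile scaling moved the median of all genes to -0.20 with isotype and to -0.24 with anti-LAIR-1. Under it the Mcl1 difference was -0.01 with isotype and 0.04 with anti-LAIR-1 (adjusted p = 0.919 and 0.684), so that no direction is given for Mcl1, and Bcl2 with isotype was -0.41 (adjusted p = 0.00852). Bcl2 also passed with isotype without unstimulated isotype mouse 1 (adjusted p = 0.0281) or without anti-CD3 isotype mouse 3 (0.0173), and after thinning (0.0349). Mcl1 passed with isotype without anti-CD3 isotype mouse 3 (0.0403), with no filter (0.0198) and with all 12 libraries in 1 fit (0.0344). With anti-LAIR-1 the Bcl2 call was lost without unstimulated mouse 3 (0.0823) or without anti-CD3 mouse 1 or 2 (0.140 and 0.102), with no filter (0.104) and with all 12 libraries in 1 fit (0.0537). The Mcl1 call was lost without unstimulated mouse 3 (0.0563) and after thinning (0.163).

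Of the 5 BH3-only genes, 4 fell with anti-CD3 and 1 rose, in both antibody settings. Over all genes tested, 36.1% fell and 35.3% rose with isotype, and 36.3% fell and 36.4% rose with anti-LAIR-1. The fall of Pmaip1 with anti-LAIR-1 was not called in every setting, as given below. Bcl2l11 (chr2:128126038-128162547) encodes BIM, and the counts do not separate its isoforms. It was at 216, 209 and 244 CPM in unstimulated isotype wells and 120, 120 and 102 CPM with anti-CD3 and isotype. The lowest unstimulated library lay above the highest stimulated one, and the log2 fold change was -1.01 ± 0.11 (SE, adjusted p = 1.2e-08). With anti-LAIR-1 the values were 238, 205 and 230 CPM without and 137, 138 and 153 CPM with anti-CD3, again without overlap. There the log2 fold change was -0.66 ± 0.09 (SE, adjusted p = 1.1e-06).

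Bad (chr19:6941861-6951899) encodes a protein that binds BCL2 and BCL-XL and is held inactive by phosphorylation. It was at 7.93, 8.15 and 9.15 CPM in unstimulated isotype wells and 2.72, 1.48 and 1.45 CPM with anti-CD3 and isotype. This was the widest fall of the 10, -2.24 ± 0.39 on the log2 scale (SE, adjusted p = 2.2e-05), and it rested on 7 to 9 counts in each stimulated library. With anti-LAIR-1 it was at 14.4, 13.2 and 13.4 CPM without and 3.64, 3.21 and 3.17 CPM with anti-CD3, a log2 fold change of -2.02 ± 0.25 (SE, adjusted p = 5.2e-07). The groups did not overlap in either setting. Bad shares its locus with Gpr137 on the opposite strand, which is also in the count table. The strand setting of the counting is not given in the sources used here, so that reads of the pair may not be separated.

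Bbc3 (chr7:16308393-16318205) encodes PUMA, a p53 target that binds all the survival proteins. It was at 34.7, 35.8 and 51.6 CPM without and 17.2, 11.8 and 16.7 CPM with anti-CD3 in the isotype libraries, and the log2 fold change was -1.43 ± 0.20 (SE, adjusted p = 1.2e-06). With anti-LAIR-1 it fell by 0.91 ± 0.13 on the log2 scale (SE, adjusted p = 5.6e-06), and the groups did not overlap in either setting. Pmaip1 encodes NOXA, which binds MCL1. It was at 20.1, 19.1 and 15.1 CPM without and 12.7, 6.77 and 9.16 CPM with anti-CD3 in the isotype libraries, and the log2 fold change was -1.01 ± 0.25 (SE, adjusted p = 0.00117). With anti-LAIR-1 its levels of 14.9, 15.4 and 13.6 CPM without and 10.6, 8.77 and 11.2 CPM with anti-CD3 gave -0.53 ± 0.20 (SE, adjusted p = 0.0238). The groups did not overlap in either setting. This last call was lost in DESeq2 (adjusted p = 0.0685), without the filter (0.0928), after thinning (0.501), and without unstimulated mouse 1 or 2 (0.0537 and 0.0639) or anti-CD3 mouse 2 (0.108).

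Bid (chr6:120891930-120916853), which caspase-8 cleaves to link death receptors to mitochondria, was the BH3-only gene that rose. Its level was 13.5, 8.15 and 20.4 CPM without and 30.8, 43.2 and 32.8 CPM with anti-CD3 in the isotype libraries. All stimulated libraries were higher, with a log2 fold change of 1.35 ± 0.24 (SE, adjusted p = 2.3e-05), and with anti-LAIR-1 it was 1.67 ± 0.19 (SE, adjusted p = 2.1e-07). Bid overlaps Bcl2l13 on the opposite strand, for which the same limit holds as for Bad.

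The effectors BAX and BAK form the pores of the outer membrane, and their genes differed in response. Bax (chr7:45461697-45466898) was at 19.2, 22.0 and 35.5 CPM without and 60.4, 64.3 and 55.3 CPM with anti-CD3 in the isotype libraries. The groups did not overlap, and the log2 fold change was 1.24 ± 0.18 (SE, adjusted p = 1.5e-06). With anti-LAIR-1 it was 1.29 ± 0.13 (SE, adjusted p = 4.4e-08). Bak1 (chr17:27019810-27029009) was at 7.60, 5.70 and 3.23 CPM without and 6.94, 6.14 and 4.82 CPM with anti-CD3 in the isotype libraries, with 6 to 30 counts each. The groups overlapped and the log2 difference was -0.01 ± 0.35 (SE), with a 95% interval of -0.74 to 0.72 (adjusted p = 0.983). With anti-LAIR-1 the difference was 0.24 ± 0.32 (SE, 95% interval -0.42 to 0.91, adjusted p = 0.502). Changes of either sign within these intervals remain compatible with the data. The difference between the responses of Bax and Bak1 was not tested. Bak1 overlaps Ggnbp1 on the opposite strand. Bax overlaps the protein-coding gene Gm45808 on the same strand. Gm45808 is not in the count table, so that reads of this pair may not be separated.

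**Figure D2:**
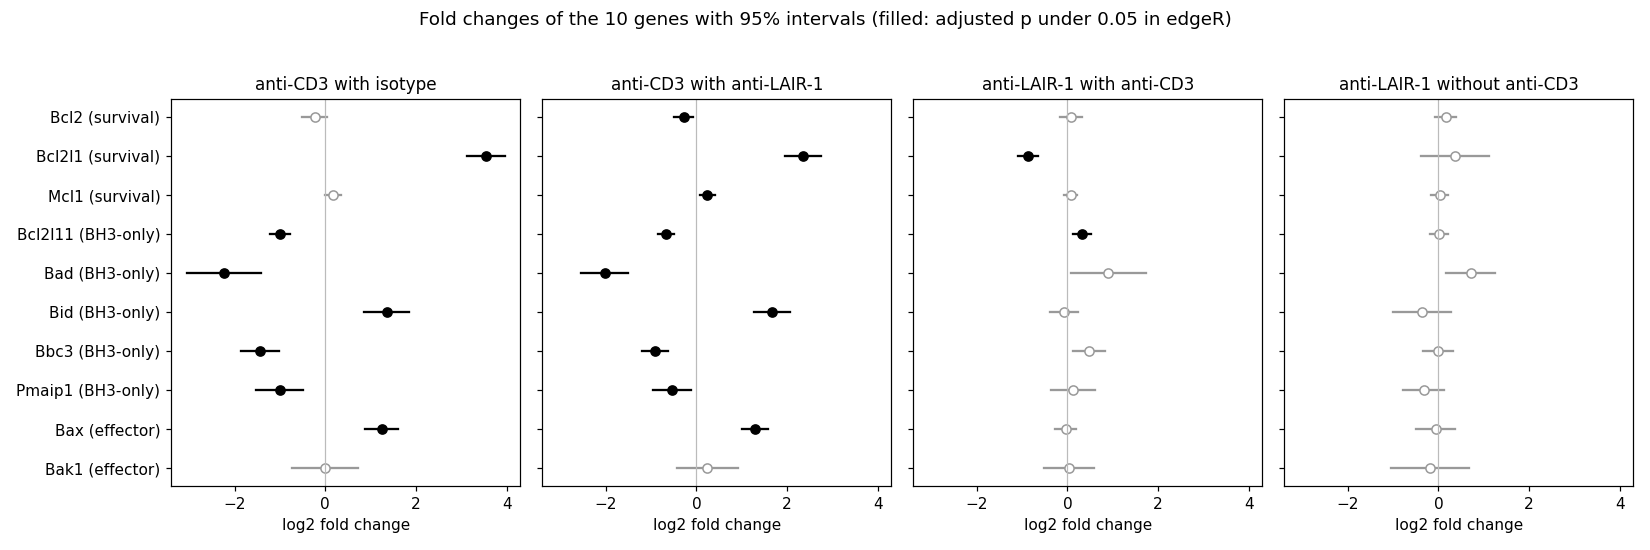
Log2 fold change of each gene (points) with its 95% interval (lines) in the 4 comparisons of pairs of conditions, filled where the adjusted p in edgeR was under 0.05. Bcl2l1 lies at 3.53 and 2.35 for anti-CD3 and at -0.87 for anti-LAIR-1 with anti-CD3, and no point is filled for anti-LAIR-1 without anti-CD3.

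The second question was how LAIR-1 ligation changed the family's RNA in stimulated cells. Bcl2l1 was lower with anti-LAIR-1 in all 3 mice, and Bcl2l11 was slightly higher, so that 2 of the 10 genes were called (1 higher, 1 lower), against 5.76% of 8800 genes tested, 3.9% higher and 1.86% lower. The other 8 did not pass. The median log2 fold change was 0.07 over the 10 genes and 0.00 over all genes. The anti-CD3 isotype libraries stand in this comparison and in that of anti-CD3 with isotype, so that the values of the 2 comparisons are not independent.

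Bcl2l1 was at 70.3, 66.7 and 81.0 CPM with isotype (72.7 ± 7.42, SD, n = 3) and at 40.5, 39.5 and 40.4 CPM with anti-LAIR-1 (40.1 ± 0.573, SD, n = 3). Every anti-LAIR-1 library lay below every isotype library. The log2 fold change was -0.87 ± 0.10 (SE), or 1.82-fold lower (adjusted p = 6.2e-05 in edgeR), and within mice 1, 2 and 3 it was -0.79, -0.75 and -0.99. The call was kept in all 7 other settings and without any 1 library (log2 fold change -0.93 to -0.79). After thinning to equal totals it was -0.91. Of the 4 naïve T cell markers, Lef1, Tcf7 and Il7r were higher in every stimulated anti-LAIR-1 library than in any stimulated isotype library. Ccr7 overlapped (147 to 215 CPM with isotype, 143 to 175 CPM with anti-LAIR-1). Of the 6 CD3 response genes, Il2ra and Myc were lower without overlap, Egr1 was higher without overlap, and Cd69, Nr4a1 and Irf4 overlapped. The part of these genes in the result was not tested. The level with anti-LAIR-1 stayed above that of the unstimulated cells, as the 5.11-fold change above shows.

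Bcl2l11 was at 120, 120 and 102 CPM with isotype (114 ± 10.7, SD, n = 3) and at 137, 138 and 153 CPM with anti-LAIR-1 (142 ± 9.05, SD, n = 3). The groups did not overlap and the log2 fold change was 0.32 ± 0.09 (SE), but it passed only narrowly (adjusted p = 0.0477). Within mice it was 0.19, 0.19 and 0.59. The call was lost with the mouse as a block (adjusted p = 0.0558), under DESeq2's size factors (0.0523), in DESeq2 (0.0608), after thinning (0.0722) and without any 1 of the 6 libraries (0.0626 to 0.205).

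For Bad and Bbc3 the groups did not overlap either, which made 4 of the 10 genes against 24.0% of all genes tested. Bad was at 2.72, 1.48 and 1.45 CPM with isotype and 3.64, 3.21 and 3.17 CPM with anti-LAIR-1, a log2 difference of 0.90 ± 0.39 (SE, 95% interval 0.07 to 1.73, adjusted p = 0.218). Bbc3 was at 17.2, 11.8 and 16.7 CPM with isotype and 22.1, 20.6 and 21.2 CPM with anti-LAIR-1, a log2 difference of 0.48 ± 0.17 (SE, 95% interval 0.12 to 0.84, adjusted p = 0.119). Neither passed the threshold. The 6 remaining genes differed by -0.07 to 0.12 on the log2 scale, with adjusted p from 0.692 to 0.969. Of these, Bcl2, Mcl1 and Bax had the narrowest intervals, -0.17 to 0.33, -0.09 to 0.22 and -0.26 to 0.20, and Bak1 the widest, -0.52 to 0.58.

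Without anti-CD3, the question was whether anti-LAIR-1 alone changed these genes. None of the 10 was called in edgeR (1 at an unadjusted p under 0.05), and DESeq2 called none either. No gene of the 8770 tested was called (0.0%), while 384 (4.38%) had an unadjusted p under 0.05. Bad was the gene of the family whose groups did not overlap, against 9.66% of all genes, with 7.93, 8.15 and 9.15 CPM with isotype and 14.4, 13.2 and 13.4 CPM with anti-LAIR-1. Its log2 difference was 0.71 ± 0.26 (SE, unadjusted p = 0.0127, adjusted p = 0.997). Bcl2l1 differed by 0.36 ± 0.36 (SE, 95% interval -0.39 to 1.11, adjusted p = 0.997), lower with anti-LAIR-1 in mouse 1 and higher in mice 2 and 3.

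The interaction asked whether the effect of anti-LAIR-1 differed with and without anti-CD3. Bcl2l1 was the 1 of the 10 genes called, against 2.07% of 9223 genes, of which 0.249% were lower and 1.82% higher. Its interaction was -1.21 ± 0.32 on the log2 scale (SE, 95% interval -1.87 to -0.55, adjusted p = 0.0430). By mouse it was -0.09, -1.72 and -1.74, so that the value came from mice 2 and 3, whose unstimulated libraries held 10 to 35 counts of the gene. The call was kept with the mouse as a block (adjusted p = 0.0480) but lost after thinning (0.104) and when any library was left out (0.0571 to 0.163) except the unstimulated ones of mouse 1 (0.0283 and 0.00992). Bcl2l11 had an interaction of 0.31 ± 0.14 (SE, adjusted p = 0.331), Bbc3 of 0.49 ± 0.24 (0.412) and Pmaip1 of 0.45 ± 0.32 (0.635), and none of these passed.

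**Figure D3:**
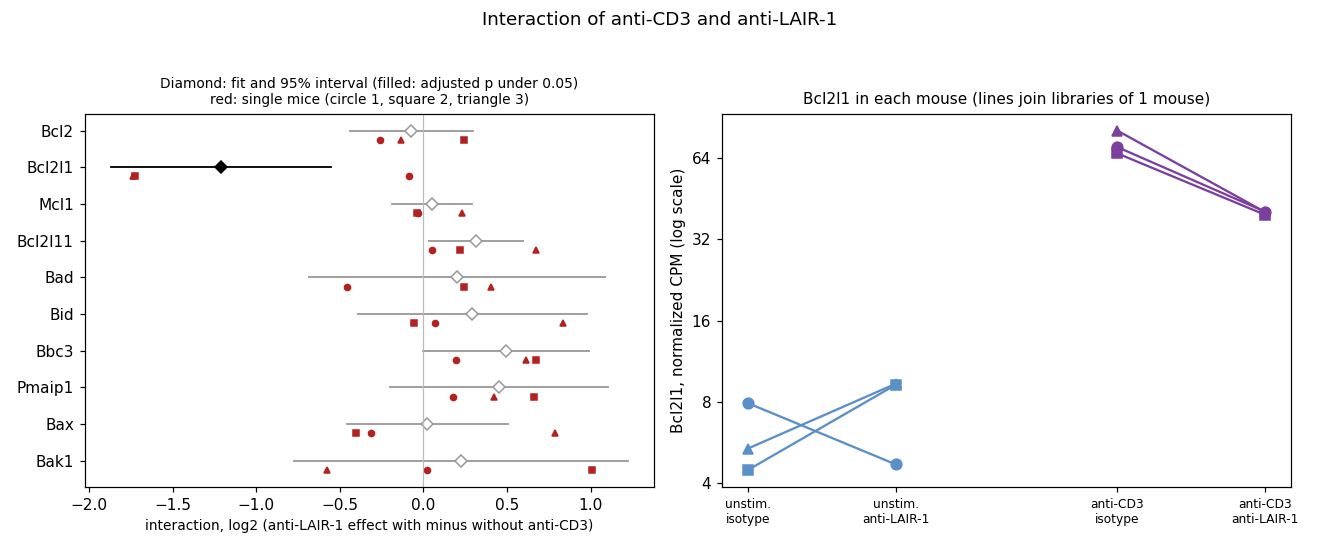
Left, interaction of the antibodies for each gene on the log2 scale (diamonds, with 95% intervals, filled where the adjusted p was under 0.05) and the value in each mouse (red symbols). Right, normalised CPM of Bcl2l1 on a log axis, with lines joining the isotype and anti-LAIR-1 libraries of each mouse: all 3 lines fall with anti-CD3, and without it 1 falls and 2 rise.

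To follow the family within each library, 3 genes were set against Bcl2 as the log2 ratio of their counts (0.5 added), which no scaling between libraries can move. Only changes of a ratio between conditions are read, since counts of different genes are not on 1 scale. Bcl2l1 to Bcl2 was -4.42 ± 0.62 (SD, n = 3) in unstimulated isotype libraries, -4.25 ± 0.48 with anti-LAIR-1 alone, -0.60 ± 0.12 in stimulated isotype libraries and -1.56 ± 0.19 in stimulated anti-LAIR-1 libraries. With anti-CD3 the anti-LAIR-1 library of each mouse was lower than its isotype library, by -0.86, -0.995 and -1.02. Bcl2l11 to Bcl2 was 0.80 ± 0.23, 0.64 ± 0.16, 0.05 ± 0.40 and 0.26 ± 0.10 in the same order of groups, and its difference between anti-LAIR-1 and isotype with anti-CD3 was 0.12, -0.05 and 0.57, within the spread between mice. Mcl1 to Bcl2 was 1.63 ± 0.26, 1.49 ± 0.20, 2.05 ± 0.35 and 2.02 ± 0.25. It rose with anti-CD3 in all 3 mice, by 0.31, 0.85 and 0.09 with isotype and by 0.54, 0.57 and 0.46 with anti-LAIR-1, while the groups with isotype overlapped. No test was run on these ratios, since an exact permutation test of 3 libraries against 3 cannot give a two-sided p under 0.1.

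**Figure D4:**
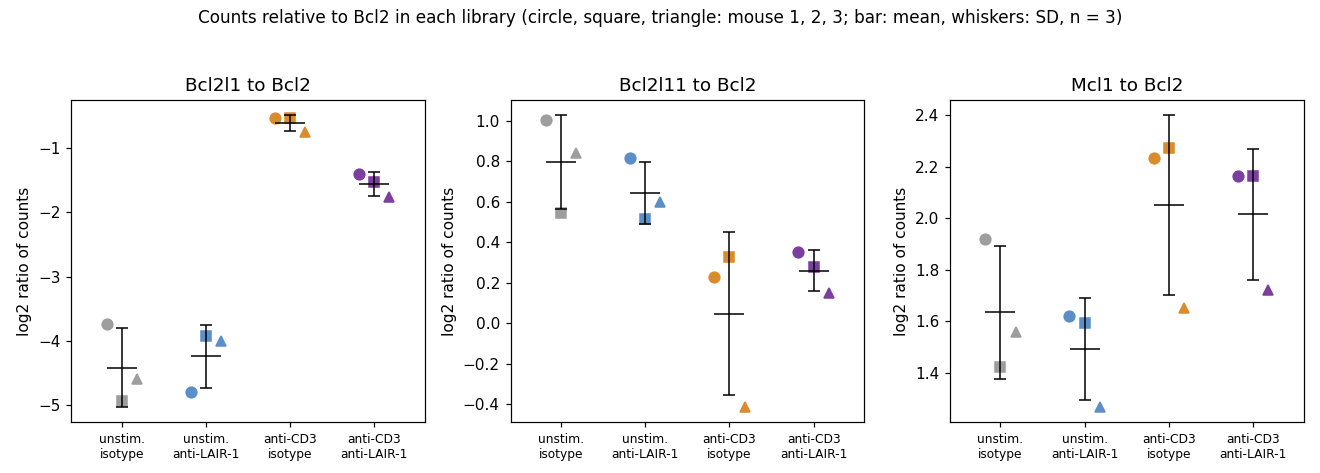
Log2 ratio of the counts of Bcl2l1, Bcl2l11 and Mcl1 to those of Bcl2 in each library, by condition (circle, square and triangle for mouse 1, 2 and 3, bars for the mean, whiskers for the SD, n = 3). The Bcl2l1 ratio is at -4.42 and -4.25 without anti-CD3, at -0.60 in stimulated isotype and at -1.56 in stimulated anti-LAIR-1 libraries, and Bcl2l11 to Bcl2 overlaps between the 2 stimulated groups.

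Over the 12 libraries, the 5 genes most like Bcl2l1 in log2 CPM among 9222 others were Idi1 (Pearson r = 0.994), Uchl5 (0.990), Nfkb2 (0.989), Cd24a (0.988) and Gadd45b (0.988). Idi1 was at a mean of 11.6, 14.7, 77.8 and 55.0 CPM in the order of groups above. For Bad they were Il10rb (0.980), Tmie (0.980), Samd9l (0.979), Ube2b (0.978) and Gse1 (0.977). An r above 0.9 was common, with 1952 genes for Bcl2l1 and 1309 for Bad, and all these libraries share the contrast between stimulated and unstimulated cells.

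Genes around the family were taken from 4 lists. In the apoptosome, caspase and inhibitor of apoptosis list, 10 of 14 genes were tested, and with anti-CD3 and isotype 3 rose and 7 fell (median log2 fold change -0.88, against -0.03 over all genes, of which 35.3% rose and 36.1% fell). Cycs, which encodes cytochrome c, rose by 2.31 ± 0.09 on the log2 scale (SE, adjusted p = 4.7e-16), while the initiator caspase gene Casp9 fell by 2.86 ± 0.42 (1.7e-06), the inhibitor Birc2 fell by 1.49 ± 0.25 (1.1e-05) and the effector caspase gene Casp6 fell by 1.32 ± 0.22 (9e-06). In the death receptor list, 4 of 9 genes tested rose and 2 fell (median 0.00), and among them Tnfrsf10b rose by 1.68, Tnfrsf1b, a TNF receptor, by 1.59, Cflar, which encodes the caspase-8 inhibitor c-FLIP, by 1.21 and the death receptor gene Fas by 1.00. In the list of regulators and partners, 8 of 15 rose and 2 fell (median 0.25), with Cdkn1a, which encodes the cell cycle inhibitor p21, at 3.76 ± 0.15 (2.5e-16), Mtch2 at 0.96, the channel gene Vdac2 at 0.71 and the stress factor Ddit3 at -0.99. With anti-LAIR-1 in both groups, 3 rose and 7 fell, 4 rose and 2 fell, and 7 rose and 4 fell in these lists, against 36.4% higher and 36.3% lower over all genes.

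**Figure D5:**
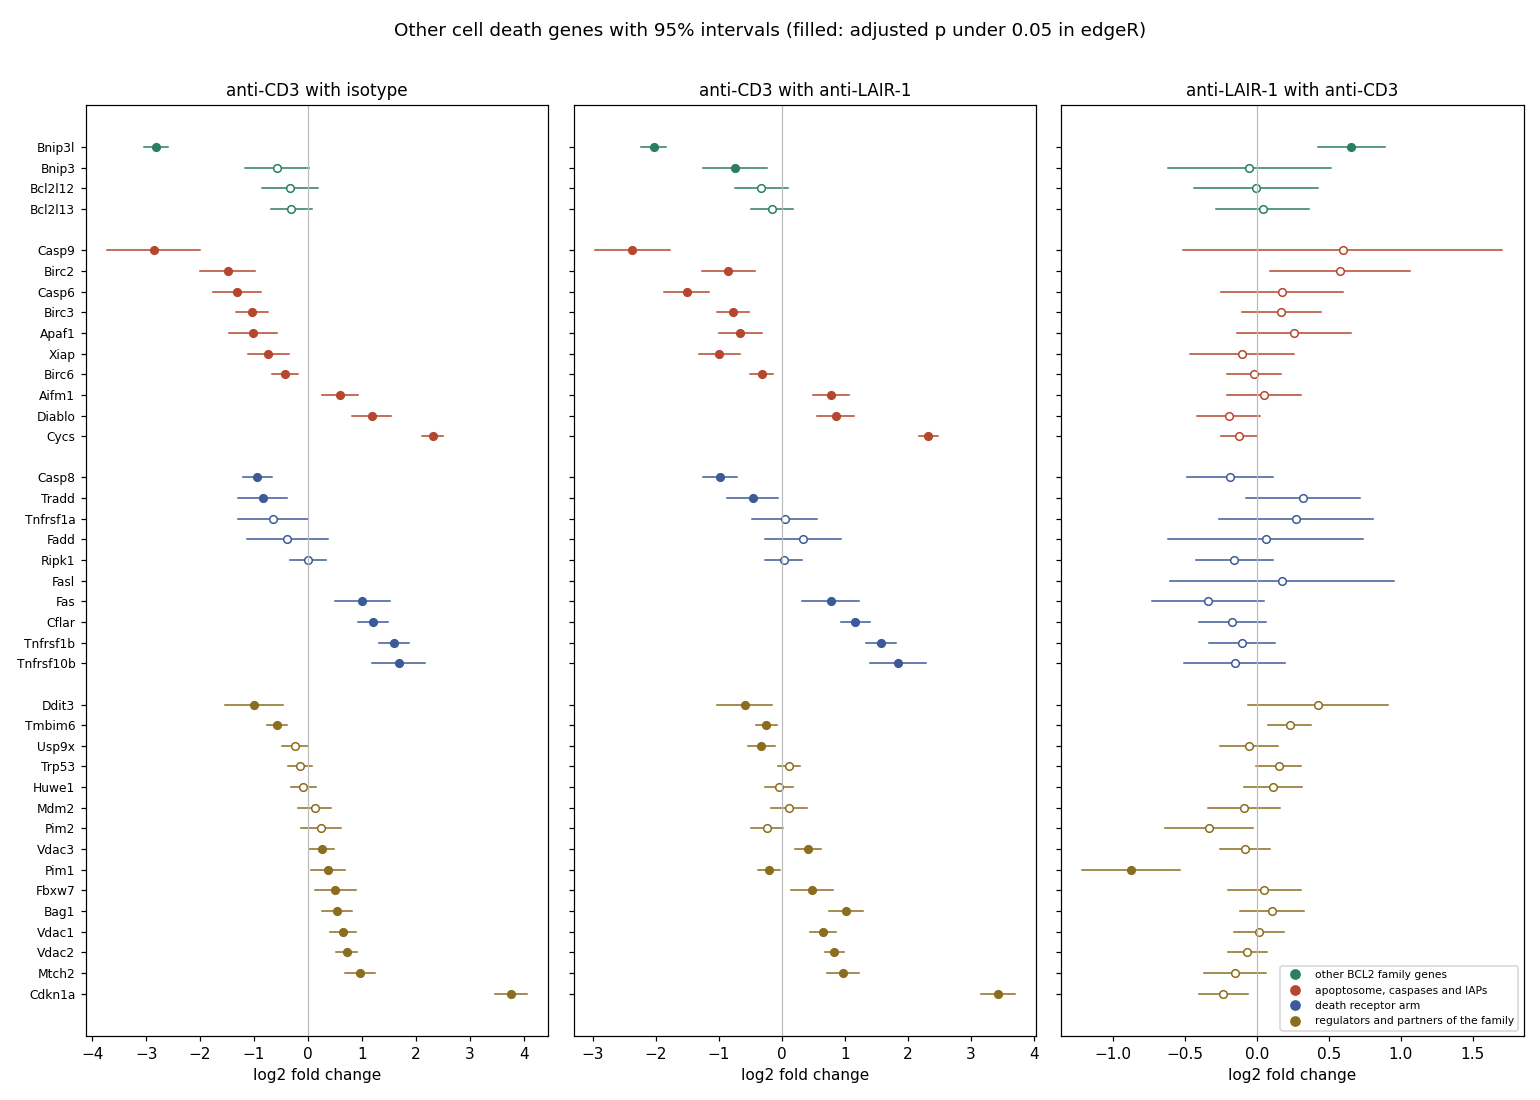
Log2 fold changes (points) with 95% intervals (lines) of the other cell death genes for anti-CD3 with isotype, anti-CD3 with anti-LAIR-1 and anti-LAIR-1 with anti-CD3, coloured by list and filled where the adjusted p in edgeR was under 0.05. Cdkn1a and Cycs lie farthest to the right for anti-CD3, and only Bnip3l and Pim1 are filled for anti-LAIR-1 with anti-CD3.

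Among 16 further BCL2 family genes, 11 were in the table and 4 were tested, and Bnip3l, which encodes the mitophagy receptor NIX, fell with anti-CD3 by 2.81 ± 0.11 on the log2 scale with isotype (SE, adjusted p = 2e-16) and by 2.04 ± 0.09 with anti-LAIR-1 (3.4e-13). Bnip3, its close relative, fell by 0.74 with anti-LAIR-1 (adjusted p = 0.0101), between groups that overlapped, and the call was lost without unstimulated mouse 3 (0.0801) or anti-CD3 mouse 1 (0.0594). With isotype it differed by -0.58 (adjusted p = 0.0726). In stimulated cells Bnip3l was 48.2 to 56.5 CPM with isotype and 71.8 to 93.1 CPM with anti-LAIR-1, groups that did not overlap. Its log2 fold change was 0.66 ± 0.11 (SE, adjusted p = 0.00155), at 0.54, 0.75 and 0.71 in the 3 mice, and its interaction was 0.75 ± 0.14 (adjusted p = 0.00277). The other gene of the 4 lists called for anti-LAIR-1 with anti-CD3 was Pim1, a survival kinase whose targets include BAD, at 395 to 799 CPM with isotype and 293 to 354 CPM with anti-LAIR-1. Pim1 changed by -0.87 ± 0.16 on the log2 scale (SE, adjusted p = 0.00333), which was -0.16, -1.44 and -0.82 in the 3 mice, and it was not called in DESeq2 (adjusted p = 0.0711). Without the anti-CD3 isotype library of mouse 2 the Pim1 value was -0.57, and it was still called. No gene of the caspase or death receptor lists was called for anti-LAIR-1 with anti-CD3 or in the interaction, and none of the 4 lists without anti-CD3. Over all genes tested, 5.76% were called for anti-LAIR-1 with anti-CD3, 2.07% in the interaction and 0.0% for anti-LAIR-1 without anti-CD3.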

How the data were processed

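Naïve CD8+ T cells of 3 mice gave 12 CEL-seq libraries, 1 per mouse and condition. The deposited values are counts of reads per gene symbol, which the authors made by aligning read 2 to the mm10 transcriptome with BWA MEM (version not given in the sources used here), discarding reads that mapped equally well to several places, and counting with MapAndGo. They are not normalised. Whether copies of 1 molecule were collapsed by their identifiers and whether strand was used are not given in the sources used here, so that the CPM of 3 counts covers counting error only. Reads lie near the 3′ end, and isoforms were not separated. Positions are from GENCODE M21 (GRCm38).

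Groups were taken from the labels and compared with edgeR 4.0.16 (R 4.3.3): TMM, filterByExpr, the quasi-likelihood F-test on the libraries of the groups compared (all 12 for the interaction), with p-values adjusted by Benjamini-Hochberg over every gene tested, at 0.05. The study's DESeq2 was an alternative (version 1.42.0). Log2 CPM per mouse used a prior count of 2. The fits were tested on simulated data. No 2 libraries of a group agreed within sampling noise. The 10 genes, the 4 lists and the marker lists were chosen with earlier results of these data known, and support nothing by themselves. All 10 genes are named in every comparison; of each list, at most 4 called genes with the widest change; for likeness, the 5 highest r for the genes with the highest and lowest anti-CD3 change. Some genes of the planned lists are not reported here. A search of the proteins for the BH3 motif was planned and not done.

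The pairing by mouse comes from the sort per mouse in the methods and the labels' mouse numbers; the p-values otherwise measure the spread between 3 mice handled together. Across genes, the libraries' deviations from their group means had a mean r of 0.027 to 0.075 within a mouse in the 4 comparisons and of -0.037 to -0.014 between mice. The means between mice follow largely from those within, since the deviations of a group cancel by construction. Fits without the block are reported. Alternatives were DESeq2's size factors or upper quartile scaling in edgeR, DESeq2, the mouse as a block, no filter, all 12 libraries in 1 fit, thinning to the smallest total, each library left out, and 2 counts added in the ratios.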

Additional observations from a re-analysis of the deposited data

Results flagged for a closer look

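The effect of anti-LAIR-1 on Bcl2l1 differed between stimulated and unstimulated cells by the test of the difference itself, with an interaction of -1.21 on the log2 scale. This call passed narrowly (adjusted p = 0.0430 in edgeR). It was lost after thinning (0.104) and without any 1 library except the unstimulated ones of mouse 1. The value rested on mice 2 and 3 and on low counts in the unstimulated libraries, as given above. Bnip3l, chosen as a list gene, had an interaction of 0.75 in the opposite direction, positive in all 3 mice (0.51, 0.99 and 0.76), and kept its call in every other setting and without any 1 library (adjusted p 0.000952 to 0.0183). No explanation of either was tested.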

How the results depend on the processing

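With the mouse as a block, the genes called over all genes were 6138, 6478, 549, 0 and 218 for anti-CD3 with isotype, anti-CD3 with anti-LAIR-1, anti-LAIR-1 with anti-CD3, anti-LAIR-1 without it and the interaction, and of the 10 genes 7, 9, 1, 0 and 1 were called. Pairing changed no other call of the 10 than that of Bcl2l11. For anti-LAIR-1 with anti-CD3, 1 of the 10 was called also under DESeq2's size factors, in DESeq2, after thinning and without any 1 library (1 to 1), and over all genes 321 after thinning and 293 to 427 without 1 library. Without anti-CD3, 5 genes were called with no filter and 0 to 1 without 1 library. In the interaction, 0 of the 10 and 111 of all genes were called after thinning, and 0 to 1 and 103 to 186 without 1 library. Values near 0 that changed sign were Mcl1 with anti-CD3 and isotype under upper quartile scaling (-0.011), Bak1 there (0.00035 with DESeq2's size factors, 0.035 in DESeq2, 0.093 with the block, 0.082 with no filter, 0.023 with all 12 libraries, and -0.24 to 0.31 without 1 library), Bcl2l11 without anti-CD3 after thinning (-0.0015) and Bax in the interaction with no filter (-0.0063). Leaving out 1 library also turned Bak1 for anti-CD3 with anti-LAIR-1 (-0.069 to 0.46). It turned, for anti-LAIR-1 with anti-CD3, Bcl2 (-0.034 to 0.25), Bid (-0.16 to 0.085), Pmaip1 (-0.071 to 0.33), Bax (-0.13 to 0.021) and Bak1 (-0.13 to 0.13). Without anti-CD3 it turned Mcl1 (-0.026 to 0.086), Bcl2l11 (-0.033 to 0.077), Bbc3 (-0.12 to 0.18), Bax (-0.24 to 0.22) and Bak1 (-0.41 to 0.14), and in the interaction Bcl2 (-0.19 to 0.10), Mcl1 (-0.019 to 0.098), Bid (-0.011 to 0.56), Bax (-0.25 to 0.21) and Bak1 (-0.098 to 0.45). No called value changed sign. Bad was not tested after thinning for anti-CD3 with isotype and for anti-LAIR-1 with anti-CD3, where its counts were too low. The cause of the other changes was not tested. Depth limits Bad, Bak1 and the unstimulated values of Bcl2l1 most, and with 3 mice the estimates of spread are themselves uncertain.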

Other observations

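Of the further BCL2 family genes, 7 were too low to be tested, and the values of Bmf, Bcl2a1b, Bik and Hrk among them stand here with no comparison. Bmf, a BH3-only gene, was at a mean of 2.15 ± 0.730 CPM (SD, n = 3) in unstimulated isotype libraries and 0.0705 ± 0.122 CPM with anti-CD3 and isotype, and at 1.34 ± 1.16 and 0.465 ± 0.540 CPM with anti-LAIR-1. Bcl2a1b is an NF-kB-induced survival gene with near-identical copies whose shared reads were discarded. It was at 0 in the 3 unstimulated isotype libraries and at 0.302 to 0.846 CPM (1 to 4 counts) with anti-CD3 and isotype. With anti-LAIR-1 it was at 0 to 0.277 CPM without and at 0.635 to 0.844 CPM with anti-CD3. Bik was at a mean of 0.715 to 1.70 CPM over the 4 groups and Hrk at most at 0.212 CPM in any library. These levels are near or below that of 3 counts.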
